A study of Mus musculus with 6 samples.

Results

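The synaptotagmins described here are 10 genes of the mouse dorsal root ganglion, namely Syt1, Syt2, Syt3, Syt4, Syt5, Syt6, Syt7, Syt9, Syt11 and Syt13. They are part of the family and were chosen by gene symbol from a deposited table of 16613 genes. Earlier results of these data were known when they were chosen. All 10 had enough counts to be among the 15043 genes tested. Messenger RNA had been sequenced from whole dorsal root ganglia of mice 6 months old. The 3 control libraries came from Kif2a fl/fl animals, and the 3 knockout libraries from Kif2a fl/fl; Avil cre animals, so floxed Kif2a alleles were shared by both groups. The Cre follows Avil, a gene of peripheral sensory neurons, so the glia, vessels and immune cells of the ganglion are not its target. Whether each library is a different animal is not stated in the labels, and the p-values below therefore reflect differences between these libraries, which may in part be technical. The series asks how Kif2a in sensory neurons bears on nociception.

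Synaptotagmins are vesicle and membrane proteins with a short transmembrane anchor and a pair of C2 domains. In most of the family these domains bind calcium and then engage phospholipids and SNARE proteins, which couples a rise in calcium to fusion of the vesicle. Members differ in calcium affinity and speed, and some do not bind calcium. In sensory neurons, calcium-triggered fusion releases glutamate at spinal terminals and neuropeptides from large dense-core vesicles, also along the axon and from the cell body.

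Before the members, the libraries were checked. Totals ran from 16090726 to 19221415 counts. Markers of sensory neurons, satellite glia and Schwann cells were present in all 6 libraries, as a dorsal root ganglion requires. Summed over 8 skeletal muscle markers, control replicate 2 stood at 1430 CPM (counts relative to the library total, after TMM scaling), whereas the other 5 libraries stood between 6.84 and 60.4 CPM. Calls of members are therefore also given without its pair. The floxed gene Kif2a, a microtubule-depolymerising kinesin, was at 97.4 ± 7.17 CPM in controls and 88.3 ± 2.45 CPM in knockouts (SD, n = 3), a difference that did not pass in edgeR (adjusted p = 0.957, and 0.284 with the replicate block). A whole-gene count does not isolate the deleted part, nor neurons from other cells. Avil, whose regulatory sequence drives the Cre, was at 1050 ± 46.0 CPM in controls and 469.4 ± 42.2 CPM in knockouts. Effects of Kif2a loss, of Cre and of lower Avil cannot be told apart in these groups. Kif2a shares exonic bases with Dimt1, and Avil with Tsfm, on the other strand.

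The library numbers 1 to 3 in the labels are shared by the groups, and same-numbered libraries deviated together, so a blocked fit, with the replicate number as a term, was made beside the unblocked one. In the text, "fell" and "rose" are used of genes whose adjusted p was under 0.05 in edgeR with this block. The p-values were adjusted over all 15043 genes. With a pair left out the blocked fit rests on few libraries, so calls kept or lost there are a weak check.

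Of the 10 synaptotagmins, 4 fell (Syt1, Syt5, Syt7 and Syt9) and 1 rose (Syt3) in the blocked fit. In that fit, 2.36% of all tested genes fell and 1.24% rose. Without the block 0 of 10 passed in edgeR, where 0% of all genes passed, although 5 members had an unadjusted p under 0.05, against 5.48% of all genes. The calls of members in edgeR therefore rest on the pairing of libraries. DESeq2 without a block passed Syt7 alone, as lower (0.366% of its genes were lower), and with the block it passed 5 members, all lower (2.23% of its genes were lower). The median log2 fold change of the 10 was -0.28 in the blocked fit and -0.30 without it, beside 0.01 over all genes in both. These counts and medians describe the chosen 10 and not the whole family. Of 18 further synaptotagmins and relatives tested, 0 passed in the blocked fit, with a median of 0.02.

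The start regions of some of the members that passed are shown here, so that the sequence behind those transcripts can be read. RefSeq windows of 300 bases, 250 before to 50 after a transcription start on build GRCm38.p6, were searched for 6 of the members. They included 3 of those that passed, Syt1 and Syt9, which fell, and Syt3, which rose. Syt5 and Syt7, which also fell, and Syt13 had no entry among the windows used. Syt4 was left out of the search. Capitals mark letters of the 4 motifs searched on both strands, the AP-1 site TGANTCA, the cyclic AMP response element TGACGTCA, the GC box GGGCGG and the Runx core TGTGGT. None of these overlaps another in the windows shown. Each is printed 5′ to 3′ on the gene's strand.
Syt1, chr10:109010926-109011225, minus strand: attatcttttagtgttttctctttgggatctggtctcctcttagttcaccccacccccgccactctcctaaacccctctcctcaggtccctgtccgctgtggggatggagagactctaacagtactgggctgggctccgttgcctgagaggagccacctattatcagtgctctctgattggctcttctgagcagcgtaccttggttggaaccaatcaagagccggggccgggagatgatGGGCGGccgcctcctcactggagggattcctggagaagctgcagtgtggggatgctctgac
Syt9, chr7:107370540-107370839, plus strand: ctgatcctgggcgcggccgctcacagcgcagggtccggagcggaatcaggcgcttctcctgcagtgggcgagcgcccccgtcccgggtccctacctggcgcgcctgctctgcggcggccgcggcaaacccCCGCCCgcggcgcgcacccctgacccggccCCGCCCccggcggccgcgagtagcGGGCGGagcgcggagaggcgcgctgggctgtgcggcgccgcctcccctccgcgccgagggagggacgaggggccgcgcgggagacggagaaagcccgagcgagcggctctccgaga
Syt3, chr7:44383876-44384175, plus strand: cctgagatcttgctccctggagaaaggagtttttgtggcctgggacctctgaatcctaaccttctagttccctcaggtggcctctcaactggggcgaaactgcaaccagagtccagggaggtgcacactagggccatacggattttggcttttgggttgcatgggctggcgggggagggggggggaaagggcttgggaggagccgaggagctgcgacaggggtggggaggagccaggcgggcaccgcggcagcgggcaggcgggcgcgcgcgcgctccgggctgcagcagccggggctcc

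The windows differ in composition, with 56.7% G and C for Syt1, 79.3% for Syt9 and 66.3% for Syt3. The median was 52.7% over all 32851 such windows at transcription starts of mouse genes. The GC box occurred once in the Syt1 window shown and 3 times in the Syt9 window, and the Syt3 window held none of the 4 motifs. A GC box is present in 35.7% of all windows. The AP-1 site was in none of the 3 windows, and it is in 7.81% of all windows. The Runx core, in 16.8% of all windows, and the cyclic AMP response element, in 1.79%, were also absent. A further RefSeq window of Syt1, at chr10:109009062-109009361, has 44.0% G and C and none of the 4 motifs, and the one shown is the nearer to the annotated 5′ end of the gene. Among members that did not pass, each window searched of Syt2, Syt6 and Syt11 held 2 to 4 GC boxes. An AP-1 site was found in windows of Syt2 and Syt6. All these matches describe letters only.

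Syt1, the sensor for fast synchronous transmitter release in many neurons, fell. It stood at 411.9, 415.2 and 286.6 CPM in controls 1 to 3, against 306.8, 274.1 and 244.0 CPM in knockouts 1 to 3. The groups overlapped, because knockout replicate 1 lay above control replicate 3, yet each knockout library was below the control of its own number. The pair differences were -0.42, -0.60 and -0.23 on the log2 scale, and a fall in all 3 pairs was seen for 20.6% of all genes. The blocked log2 fold change was -0.42 (SE 0.08, edgeR adjusted p = 0.0132), and without the block it was -0.43 (SE 0.17, adjusted p = 0.904). With pair 1 left out the call was lost (log2 fold change -0.43, adjusted p = 0.0973), and without pair 2, which holds the library with muscle transcripts, it was kept at -0.32 (adjusted p = 0.0165). Syt1 lies on chromosome 10 from 108497650 to 109010982 (mm10, minus strand).

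Syt9, a fast calcium sensor closely related to Syt1 that also works on dense-core vesicles, fell without overlap. Its levels were 157.8, 197.6 and 126.4 CPM in controls 1 to 3, against 97.99, 118.9 and 95.6 CPM in knockouts 1 to 3. Every knockout library was below every control library, which was so for 6.12% of all genes. Its knockout mean came to 64.9% of that in controls, and the blocked log2 fold change was -0.61 (SE 0.08, edgeR adjusted p = 0.00132). The call was kept with each pair left out, at log2 fold changes of -0.71 to -0.54 (-0.54 without pair 2). Syt9 lies on chromosome 7 from 107370728 to 107548656.

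Syt7, the slow, high-affinity sensor of asynchronous release, facilitation and lysosome fusion, fell by as much. It was at 259.5, 238.0 and 184.8 CPM in controls 1 to 3, against 154.3, 146.8 and 139.9 CPM in knockouts 1 to 3. The groups did not overlap, and the knockout libraries were closer together (SD 7.19 CPM) than the controls (SD 38.5 CPM). The mean fell to 64.6% of the control mean, with a blocked log2 fold change of -0.62 (SE 0.08, edgeR adjusted p = 0.00136). Without the block it was -0.63 (SE 0.14, adjusted p = 0.614, 95% interval -0.96 to -0.30), and DESeq2 without the block passed it (adjusted p = 0.0232). The call held with each pair left out, at -0.72 to -0.56, and without pair 2 it was -0.57. Syt7 lies on chromosome 19 from 10389090 to 10453180, and 5.13% of its exonic bases are shared with Gm26859 on the other strand. How the counting used strand is not known here, and reads of both genes cannot be told apart at those bases.

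In the authors' deposited table Syt7 and Syt9 are the 2 members marked as passing their false discovery rate and fold limits, a mark carried downward by 0.53% of the table. The authors' deposited table gives Syt7 a log2 fold change of -0.63 and a false discovery rate of 0.00274. It gives Syt9 -0.63 and 0.0390. For the other 8 members the deposited false discovery rate ran from 0.175 to 0.997.

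Syt5, a calcium-binding member found on secretory vesicles, fell. Its levels were 88.5, 116.9 and 83.1 CPM in controls 1 to 3, against 66.9, 72.0 and 73.7 CPM in knockouts 1 to 3. The groups did not overlap, and control replicate 2 was the highest library. The blocked log2 fold change was -0.43 (SE 0.10, edgeR adjusted p = 0.0454). This call was lost without pair 1 (-0.45, adjusted p = 0.151) and without pair 2 (-0.28, adjusted p = 0.0551). Syt5 lies on chromosome 7 from 4539765 to 4547541.

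Syt6, a calcium-binding member known from fusion of the sperm acrosome, had a fold change of like size and did not pass. It was at 159.6, 160.0 and 99.9 CPM in controls 1 to 3, against 87.0, 109.9 and 87.8 CPM in knockouts 1 to 3. Control replicates 1 and 2 were high, control replicate 3 lay below knockout replicate 2, and so the groups overlapped. The blocked log2 fold change was -0.54 (SE 0.13, edgeR adjusted p = 0.0893, 95% interval -0.85 to -0.23), whereas DESeq2 with the block passed it (adjusted p = 0.000428). In edgeR with the block it passed without pair 2 (-0.53, adjusted p = 6.37e-06) and without pair 3 (-0.71, adjusted p = 0.000733), and did not pass without pair 1 (-0.38, adjusted p = 0.139). Of its exonic bases 8.67% are shared with Atg4a-ps on the other strand.

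Syt3, a high-affinity sensor linked to recovery of vesicle pools and to receptor trafficking after synapses, was the member that rose. It was at 46.6, 27.9 and 39.9 CPM in controls 1 to 3, against 57.8, 36.9 and 47.3 CPM in knockouts 1 to 3. The groups overlapped, and the differences by pair were close, at 0.31, 0.41 and 0.25, with a rise in all 3 pairs also seen for 21.4% of all genes. The blocked log2 fold change was 0.32 (SE 0.08, edgeR adjusted p = 0.0421), and without the block it was 0.31 (SE 0.22, adjusted p = 0.957). The call was lost without pair 1 (0.31, adjusted p = 0.254) and without pair 2 (0.28, adjusted p = 0.0624). DESeq2 with the block did not pass it either (adjusted p = 0.160). With libraries scaled to the summed pan-neuronal markers, a scaling that lowered the median of all genes to -0.10, its blocked value was 0.21 (adjusted p = 0.157), while Syt1, Syt5, Syt7 and Syt9 were at -0.73 to -0.53 and passed. In that fit 1030 genes (6.85%) were lower and 73 (0.485%) higher, beside 355 and 187 with the block and TMM scaling, and 6 members were lower and 0 higher. Syt3 lies on chromosome 7 from 44384102 to 44400187.

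**Figure D1:**
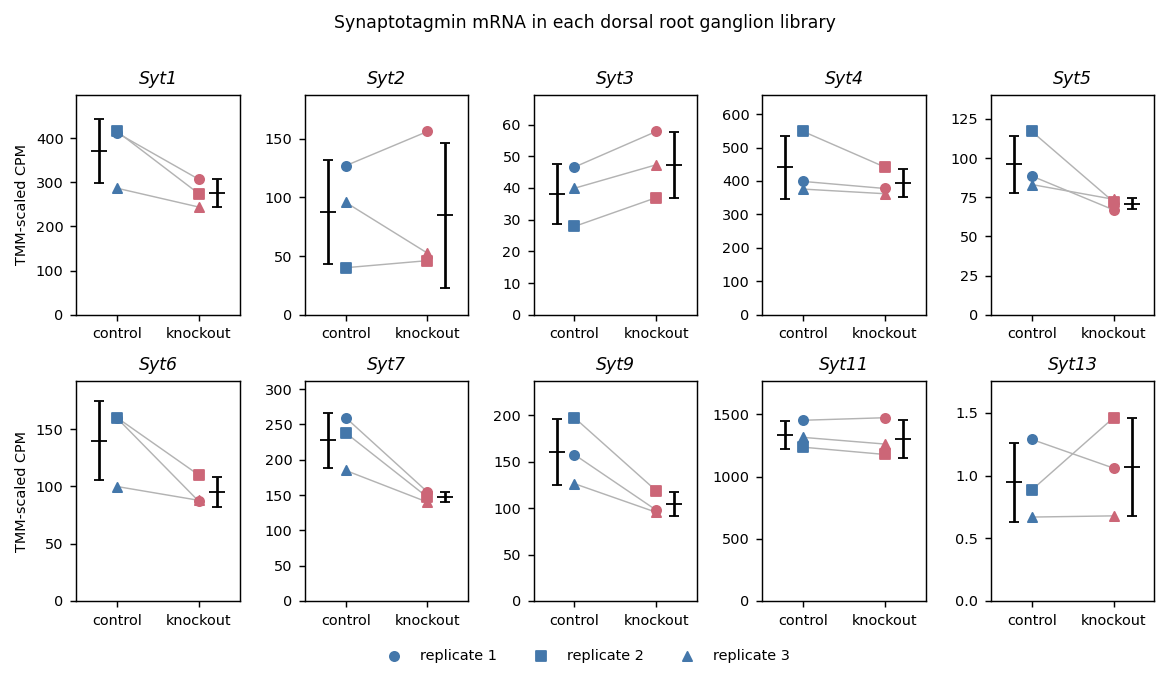
TMM-scaled CPM (vertical axes, from 0) of the 10 synaptotagmins in 3 control (blue) and 3 knockout (red) libraries, with symbols for the replicate number, grey lines joining same-numbered libraries and black bars for mean ± SD. For Syt5, Syt7 and Syt9 every knockout library lies below every control library, and for Syt2 the libraries of 1 group spread over most of the axis.

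Syt2, the fast sensor of rapidly firing neurons and of the neuromuscular junction, varied most among libraries apart from any group difference. It was at 127.1, 40.1 and 95.8 CPM in controls 1 to 3, against 156.3, 46.1 and 52.5 CPM in knockouts 1 to 3. The highest library was 3.90 times the lowest, beside 1.25 times for Syt11. Replicate 1 was the highest library in both groups, and replicate 2 the lowest. The blocked log2 fold change of -0.12 had a 95% interval of -1.36 to 1.13, so neither a fall nor a rise of a factor of 2 was outside it. The pairs went in both directions, at 0.30, 0.20 and -0.87.

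Summed levels of 18 markers of myelinated neurons, in which Syt2 is known to be expressed, were 16008, 11585 and 16088 CPM in controls 1 to 3, against 20491, 15203 and 17637 CPM in knockouts 1 to 3. Replicate 2 was the lowest and knockout replicate 1 the highest for both Syt2 and these markers. Their part in the Syt2 spread was not tested. The log2 ratio of Syt2 to Syt1 counts, which needs no scaling, was -2.22 ± 1.0 in controls and -1.92 ± 0.84 in knockouts (SD, n = 3). The difference of 0.30 was within the spread (exact permutation test, two-sided, p = 0.70; the smallest p for 3 against 3 is 0.10), and it turned to -0.28 when control replicate 2 was left out and to -0.18 when knockout replicate 1 was. A difference in response between the fast sensors was thus not detectable here.

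None of the 3 members with weak or no calcium binding passed. Syt4, an activity-induced member of dense-core vesicles, stood at 398.7, 548.2 and 375.8 CPM in controls 1 to 3, against 377.6, 441.6 and 361.9 CPM in knockouts 1 to 3. Replicate 2 was the highest in both groups and the groups overlapped. Its blocked log2 fold change was -0.15 (95% interval -0.30 to 0.01, edgeR adjusted p = 0.289). It passed only in the blocked fit scaled to pan-neuronal markers (-0.26, adjusted p = 0.0398), and without control replicate 2 and with no block it was 0.03. Gm26658 on the other strand shares 14.5% of its exonic bases.

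Syt11, which does not bind calcium and is known to restrain endocytosis in sensory neurons, had 1452, 1236 and 1315 CPM in controls 1 to 3, against 1473, 1178 and 1261 CPM in knockouts 1 to 3. The groups overlapped throughout. Its blocked log2 fold change of -0.04 had a 95% interval of -0.18 to 0.11, the narrowest of the 10 members. Syt13, an atypical member without calcium binding, was near the limit of detection, with 12 to 23 counts in control libraries and 11 to 25 in knockout libraries. At that depth its 95% interval ran from -0.61 to 0.92, so neither a fall nor a rise was detectable.

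**Figure D2:**
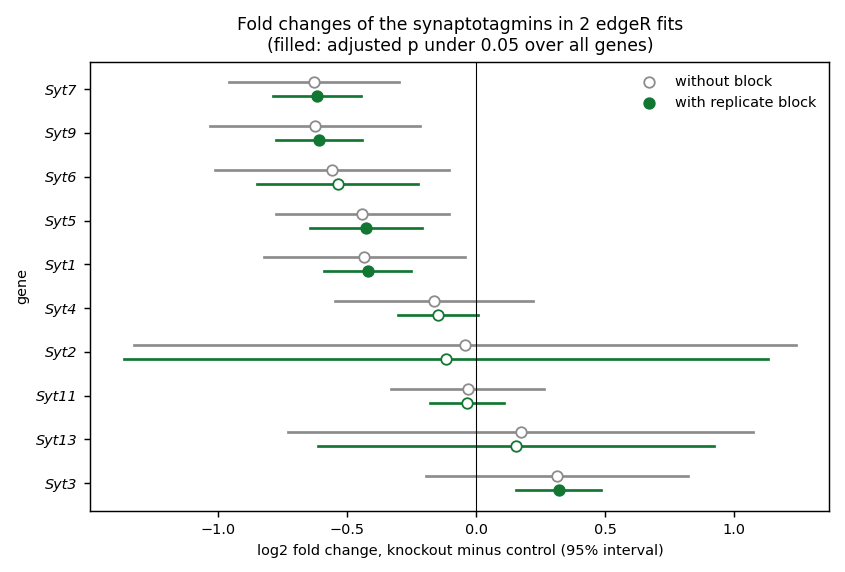
Log2 fold change, knockout minus control (horizontal axis), of each synaptotagmin in edgeR without (grey) and with (green) the replicate block, with 95% intervals and filled symbols where the adjusted p over all genes was under 0.05. The estimates of both fits nearly coincide (Syt7 at -0.63 and -0.62), while the intervals of most members are narrower with the block.

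By calcium binding, the 7 members that bind calcium had a median blocked log2 fold change of -0.43, with 4 falling and 1 rising. The 3 others had a median of -0.04, with 0 passing. In that fit 2.36% of all tested genes fell and 1.24% rose, so 0 of 3 says little. Syt13, among the 3, was near the limit of detection. These groups were drawn up with earlier results of these data known, and the difference between them was not tested. Syt7 and Syt11 were set side by side as 1 pair, chosen with earlier results of these data known, and their ratio is a description. The log2 ratio of Syt7 to Syt11 counts was -2.48, -2.38 and -2.83 in control replicates 1 to 3, and -3.25, -3.0 and -3.17 in the knockout replicates. The ratio was lower in every knockout library than in every control library. The difference between group means was -0.58, and -0.71 to -0.49 with a library left out.

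Levels of different genes are compared per kilobase of exon, with exons from GENCODE M21 on mm10. In controls Syt11 was highest, at 256.4 ± 21.0 CPM per kb (SD, n = 3), followed by Syt4 at 113.3 ± 24.1, and the libraries of these did not overlap with each other or with the next. Syt1 (44.5 ± 8.79), Syt5 (40.4 ± 7.64), Syt9 (40.4 ± 8.96) and Syt7 (30.4 ± 5.14 CPM per kb) followed, and each overlapped its neighbour in this order. Syt6 at 24.0 ± 5.93 overlapped Syt7. Syt3 (12.2 ± 3.05) and Syt2 (11.5 ± 5.77) overlapped each other, and Syt13 was last at 0.252 ± 0.0835 CPM per kb. The order of the means was the same in knockouts. There Syt9 (26.2 ± 3.22) no longer overlapped Syt7 (19.6 ± 0.961), and Syt6 (16.3 ± 2.23) overlapped Syt3 (15.2 ± 3.35 CPM per kb).

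**Figure D3:**
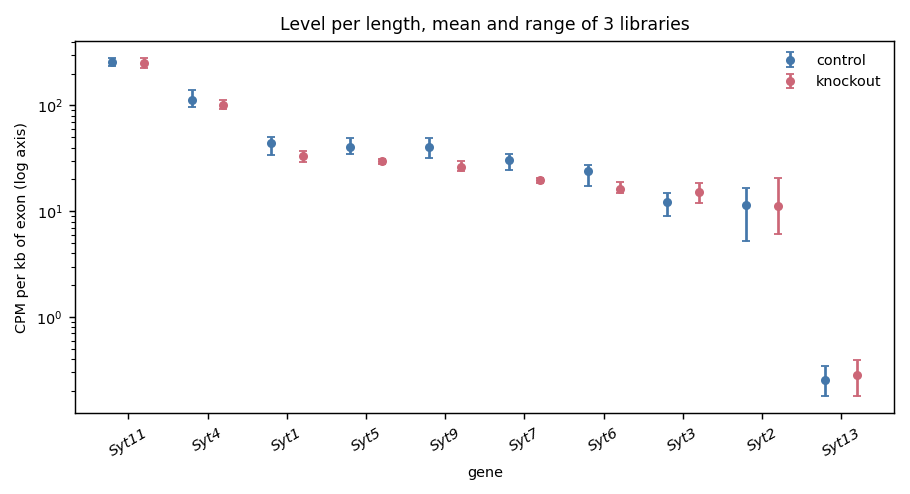
Level of each synaptotagmin in CPM per kb of exon (vertical log axis), with points for the mean and bars for the range of 3 control (blue) and 3 knockout (red) libraries, ordered by the control mean. Syt11 is at the top at 256.4 CPM per kb in controls and Syt13 at the bottom at 0.252.

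Profiles across the 6 libraries were compared between members. Likeness was measured as the root-mean-square difference between log2 CPM profiles, each centred on its own mean over both groups. A group difference is thus part of each profile, and genes with a like difference lie close by construction. The closest pairs were Syt6 with Syt9 (0.12), Syt1 with Syt7 (0.12) and Syt5 with Syt9 (0.15), and Syt3 was closest to Syt11 (0.26). Close profiles were not limited to members that fell, since Syt6 did not pass and Syt4 was nearer to Syt5 (0.17) than Syt1 was (0.19). Among the 10146 other genes that averaged 10 CPM or more, the 5 most like Syt1 were Dgkz, a diacylglycerol kinase gene (0.04), Fmnl1, a formin gene (0.06), D930015E06Rik (0.07), Palm2 (0.08) and Celf6, which encodes an RNA-binding protein (0.09). The median difference from Syt1 over those genes was 0.33. The 5 most like Syt7 were Prkca, the protein kinase C alpha gene (0.06), Gfra2, a co-receptor gene of non-peptidergic neurons (0.06), Rgs3, a regulator of G-protein signalling (0.08), Tmem158 (0.09) and D930015E06Rik (0.09), with a median of 0.38 over all genes compared. All the genes named as most like Syt1 or Syt7 fell, at blocked log2 fold changes of -0.64 to -0.36. Their likeness therefore in part restates the group difference.

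Genes that act with the synaptotagmins are given by list. Over all tested genes, 2.36% fell and 1.24% rose in the blocked fit, and these shares are the background for every list below. At such shares, 0 or 1 gene passing in a short list says little. Of 18 tested further synaptotagmins, synaptotagmin-like, extended synaptotagmin, Doc2 and rabphilin genes, 0 passed and the median blocked log2 fold change was 0.02. The one of smallest p without the block was Doc2a, a calcium sensor of spontaneous release, at 2.89 ± 0.457 CPM in controls and 4.10 ± 0.303 CPM in knockouts (blocked adjusted p = 0.197). Of 28 SNARE proteins and regulators, 1 fell and 0 rose, with a median of 0.01. Stx2, a plasma membrane syntaxin, went from 157.7 ± 21.1 to 121.0 ± 7.23 CPM (blocked log2 fold change -0.38, SE 0.07, edgeR adjusted p = 0.0129). Snap25, the neuronal SNARE partner of Syt1, was named here after its values were seen, at 0.26 (SE 0.07, adjusted p = 0.0559).

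Of 17 complexins, priming and active zone genes, 2 fell and 0 rose, with a median of -0.16. Unc13c, a vesicle priming factor, went from 59.1 ± 6.61 to 38.5 ± 1.45 CPM (blocked log2 fold change -0.62, SE 0.08). Rims1, an active zone scaffold, was at -0.35 (SE 0.09, edgeR adjusted p = 0.0499). Of 21 synaptic vesicle genes, 3 fell and 0 rose, with a median of -0.10. These were the secretory-vesicle GTPase genes Rab27b (-0.74, SE 0.07) and Rab27a (-0.38, SE 0.09), and Synpr, which encodes synaptoporin (-0.64, SE 0.10). Of 16 genes of dense-core vesicle cargo and its processing, Scg3, a granin, fell from 1047 ± 217 to 750.9 ± 85.5 CPM and Adcyap1, the PACAP gene, rose from 104.2 ± 17.1 to 135.1 ± 14.96 CPM.

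Markers of neuron classes moved beside the members. All 15 non-peptidergic nociceptor markers were lower and 12 fell, with a median blocked log2 fold change of -0.92. Their summed level was 4008, 4673 and 3361 CPM in controls 1 to 3, against 2387, 2736 and 2253 CPM in knockouts 1 to 3. Scn11a, a sodium channel gene of these neurons, went from 639.9 ± 70.1 to 336.6 ± 40.9 CPM, and Grik1, a kainate receptor gene, from 431.9 ± 119 to 224.8 ± 47.9 CPM. The part of this neuron class in the fall of Syt1, Syt5, Syt7 and Syt9 was not tested, and in whole ganglia fewer cells of a class and less RNA per cell cannot be told apart.

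Pan-neuronal markers did not fall as a list. Of 17 tested, Ina fell and Gap43, Thy1 and Map2 rose. The median was 0.10, and the summed level was 12847 to 13548 CPM in controls and 13267 to 14955 CPM in knockouts. The 11 genes taken as peptidergic nociceptor markers, a broad list that includes Th, Trpm8 and Trpa1, had a median of 0.10, with 1 rising. Without the block, 5 of them were below 0. Among those 5, Trpa1, named here after its values were seen, was at -0.92 with the block (edgeR adjusted p = 0.128). The 18 myelinated neuron markers had a median of 0.18, with 4 rising. Those included Nefh, a neurofilament gene (0.40, SE 0.07), and Ntrk3, a neurotrophin receptor gene (0.39, SE 0.09). The median was 0.20 for 12 satellite glia markers, with S100b rising, 0.06 for 11 Schwann cell markers and 0.25 for 12 macrophage markers, of which 3 rose. Of 6 fibroblast markers Lum rose, and 0 of 10 endothelial and perivascular, 7 skeletal muscle, 3 adipocyte, 1 erythroid and 2 chromaffin markers tested passed. The part of these lists in the member values was not tested.

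**Figure D4:**
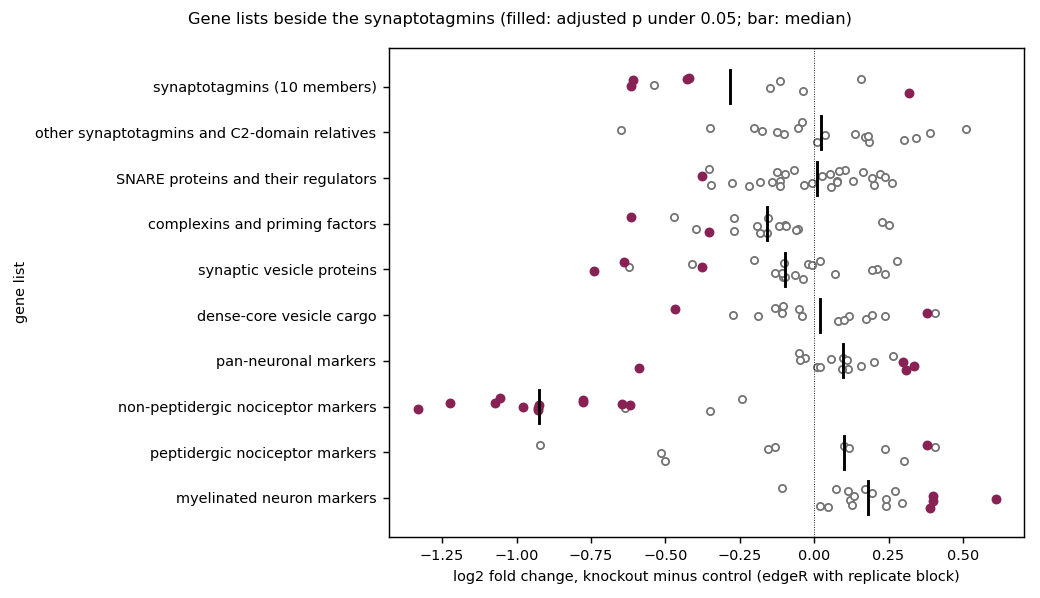
Blocked log2 fold change, knockout minus control (horizontal axis), of every tested gene of the synaptotagmins and of 9 other gene lists, with filled points where the adjusted p over all genes was under 0.05 and a black bar at each list's median. The synaptotagmin median is -0.28 and that of non-peptidergic nociceptor markers -0.92, while the other lists lie between -0.16 and 0.18.

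Sequence shared between members was checked, since it could split reads. No stretch of 50 bases in any GENCODE transcript of a member occurred in a transcript of another member. Shared stretches with other annotated genes, on either strand, made up 10.9% of the Syt4 sequence, 7.59% of Syt6, 5.92% of Syt11, 4.25% of Syt7 and at most 0.026% of the other 6 members.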

How the data were processed

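Poly(A) RNA of dorsal root ganglia was sequenced, per the labels' protocols. The submitters' processing notes name mm10, cutadapt, DESeq2 and STAR, without versions. The counting tool, annotation and strand setting: not given in the sources used here. Deposited by the authors were raw counts per gene and library, normalized signal (counts divided by 1 size factor per library, as a check on the counts showed), log2 fold changes, and p-values with a false discovery rate from fdrtool, per the file headers. The deposited log2-like transformed values were not used. The smallest total of a listed gene was 6 counts.

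The analysis used edgeR 4.0.16 under R 4.3.3 on the counts (filterByExpr, TMM, robust quasi-likelihood test, Benjamini-Hochberg threshold 0.05). SE is the absolute log2 fold change divided by the square root of F, and intervals are 95% t intervals. CPM in the text is TMM-scaled. A count of 3 corresponds to 0.159 to 0.185 CPM. Alternatives were DESeq2 1.42.0, limma-voom (limma 3.58.1), DESeq2 size factors, no filter, pan-neuronal scaling, the replicate block, and leaving out libraries or pairs. The code was tested on simulated data.

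Over 15043 genes, Pearson's correlation of same-numbered libraries' deviations from their group means was 0.58, 0.36 and 0.19 for pairs 1 to 3. All exceed 0.1, so the numbers were taken to pair the libraries. What the numbers stand for is not in the labels, so the pairing comes from the data. Control replicate 2 with knockout replicate 3 also exceeded 0.1, at 0.15. The p-values of the blocked fit do not allow for this choice of the block and may be too small.

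Members, gene lists and tests were chosen with earlier results of these data known. Genes named are all members and, from each other list, those passing the blocked fit (at most the 4 of smallest p, or the 1 of smallest unblocked p where none passed), shown in part. Snap25 and Trpa1 are exceptions, which did not pass and were named after their values were seen.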

Additional observations from a re-analysis of the deposited data

How the results depend on the processing

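Without a block, 0 genes and 0 synaptotagmins passed in edgeR with TMM, with DESeq2 size factors, with no filter, in limma-voom and with each single library left out. The replicate block gave 542 genes and 5 members. DESeq2 gave 65 genes and 1 member without the block, and 423 genes and 5 members with it. With a library or, in the blocked fit, a pair left out, counts ran from 0 to 897 genes and from 0 to 6 members. In the blocked fit alone they were 208, 819 and 897 genes and 2, 4 and 6 members without pairs 1, 2 and 3. Syt7 and Syt9 were among the members in each of these. Without pair 2 or pair 3 the blocked fit had fewer libraries yet called more than 542 genes. Calls kept or lost in such fits therefore say little about stability.

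Signs of Syt1, Syt3, Syt5, Syt6, Syt7 and Syt9 were kept in every alternative run. With a library or pair left out, fold changes crossed 0 for Syt2 (-0.83 to 0.31), Syt4 (-0.27 to 0.032), Syt11 (-0.13 to 0.035) and Syt13 (-0.11 to 0.45, and -0.15 with the block). The log2 ratio difference of Syt2 to Syt1 ran from -0.28 to 0.62, and that of Syt7 to Syt11 from -0.71 to -0.49. By pairs (replicate block), the differences were 0.30 and -0.58, with exact sign-flip p-values of 0.50 and 0.25, the smallest 3 pairs allow being 0.25. The cause of these changes was not tested. Depth limits Syt13, with 11 to 25 counts a library. Pan-neuronal scaling with the block was added after seeing the data.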
